A study of Mus musculus with 23 samples.

Results

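The transcriptome of mouse CD8+ T cells with octadecenoic acid (OA), which has a single double bond, was compared with that of untreated cells of the same genotype, over every gene of the deposited count table. The comparison takes 8 of the 23 libraries of the series, chosen by their column names: 4 of untreated cells (WT) and 4 of cells with OA (WT with OA). Both groups are CD8+ T cells of spleen from PLPP1fl/fl mice, so the control cells also carry the floxed allele of Plpp1, a membrane lipid phosphatase gene, and the labels name no Cre for them. Set beside them are 4 libraries of PLPP1fl/fl cells given arachidonic acid (AA), a polyunsaturated fatty acid, and 7 libraries of Lckcre-PLPP1fl/fl cells (KO), 4 untreated and 3 with OA, in which Cre is driven by the Lck promoter of T cells. The study's title concerns PLPP1 deficiency, ferroptosis (cell death through oxidised membrane lipids) and PD-1 signalling. Doses, treatment times, the carrier given to untreated cells, culture conditions, age and sex are not in the labels. Nothing says that libraries came from separate animals, so each p-value rests on library-to-library spread, which may be technical.

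Library depth ran from 40057517 to 56531567 counts in WT and from 39705882 to 45354545 in WT with OA. Plpp1, the targeted gene, held 17 to 32 counts in the WT libraries, 21 to 39 in WT with OA, 19 to 25 in untreated KO and 15 to 37 in KO with OA, so its counts over the whole gene do not check the genotype labels. All 7 T cell markers (Cd3d, Cd3e, Cd3g, Cd247, Cd8a, Cd8b1 and Trac) were present, with a summed level of 2224 to 2319 CPM (library counts scaled to a common total) in WT and 2225 to 2356 CPM in WT with OA. The CD4 T cell markers Cd4 and Zbtb7b together gave 7.59 to 8.46 CPM in WT and 6.46 to 8.05 CPM in WT with OA. Among counts on Trbv (beta chain) genes, Trbv12-1 took 83.4 ± 1.18% in WT and 84.8 ± 0.887% in WT with OA (SD, n = 4 each, exact 2-sided permutation p = 0.0857), so this segment dominates in both groups. Both groups also share transcripts of either sex in every library, with Xist at 814.6 to 866 CPM in WT and 784 to 856 CPM with OA, and the Y-linked Ddx3y at 58.3 to 61.9 and 56.9 to 61.5 CPM.

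Fatty acids that enter a cell are joined to coenzyme A and then burnt, stored in lipid droplets or built into membranes. To be burnt they are turned into acylcarnitines by CPT1A at the outer mitochondrial membrane, carried inwards by SLC25A20 and shortened by beta-oxidation. They are also signals: they activate the nuclear receptors called PPARs, which pair with RXR on a direct repeat of a short half-site (DR1) and switch on oxidation and droplet genes. Unsaturated fatty acids hold back SREBP-1, the factor that drives desaturase and lipid synthesis genes, and can oppose LXR, the oxysterol receptor. In T cells, fatty acid oxidation is a hallmark of long-lived cells and glycolysis of dividing effector cells.

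The promoters of Cpt1a, Plin2 and Slc25a20 are shown because these genes of acylcarnitine formation, droplet coating and acylcarnitine transport were among those higher with OA. Each window, from RefSeq on GRCm38.p6, runs from 250 bases before to 50 bases after the annotated start, on the strand of the gene. Capitals mark a match to the DR1 letters AGGTCANAGGTCA with at most 2 mismatches, searched on both strands, with no other motif searched. They lie at chr19:3323051-3323350 (plus strand) for Cpt1a, chr4:86670010-86670309 (minus strand) for Plin2 and chr9:108661886-108662185 (plus strand) for Slc25a20.
Cpt1a: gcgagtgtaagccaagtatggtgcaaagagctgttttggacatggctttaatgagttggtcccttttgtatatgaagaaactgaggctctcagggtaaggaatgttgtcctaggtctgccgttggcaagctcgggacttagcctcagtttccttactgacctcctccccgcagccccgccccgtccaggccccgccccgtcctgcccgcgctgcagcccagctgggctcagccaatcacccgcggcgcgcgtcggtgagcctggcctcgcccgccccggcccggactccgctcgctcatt
Plin2: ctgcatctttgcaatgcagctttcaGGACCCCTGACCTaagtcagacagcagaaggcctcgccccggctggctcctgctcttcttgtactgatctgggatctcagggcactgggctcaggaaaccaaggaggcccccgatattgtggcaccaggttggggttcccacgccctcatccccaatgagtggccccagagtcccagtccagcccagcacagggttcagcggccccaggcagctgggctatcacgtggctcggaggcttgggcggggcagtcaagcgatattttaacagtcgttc
Slc25a20: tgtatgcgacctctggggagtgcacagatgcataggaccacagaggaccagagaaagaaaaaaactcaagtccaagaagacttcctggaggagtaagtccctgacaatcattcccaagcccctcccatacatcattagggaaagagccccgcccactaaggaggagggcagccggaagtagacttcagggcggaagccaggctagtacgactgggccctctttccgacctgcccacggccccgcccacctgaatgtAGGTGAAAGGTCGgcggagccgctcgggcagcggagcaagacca
The Plin2 window holds 1 match, which begins 225 bases before the start and reads on the opposite strand, with 2 mismatches. The Slc25a20 window holds 1 match that begins 6 bases past the start, also with 2 mismatches. In the Cpt1a window these letters were not found, and nothing about the receptor follows from that. The motif was in 3.86% of all 32851 promoter windows in the reference table, and in 4.40% of the 27025 genes they belong to. Counted by gene, 8 of 156 genes higher with OA that have a window held it (5.13%), 15 of 316 lower genes (4.75%) and 409 of 10804 tested genes (3.79%). Counted by window, these shares were 3.86%, 3.37% and 3.08%.

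OA changed the expression of 672 of 18015 tested genes in WT, or 3.73%, at a Benjamini-Hochberg adjusted p of 0.05 in the quasi-likelihood test of edgeR. Of these 221 (1.23% of the tested genes) were higher and 451 (2.50%) lower. Counts of list members given below are to be read beside these shares. Changes were small. The median change of the called genes was 1.18-fold, 74 differed at least 1.5-fold (30 higher, 44 lower) and 21 at least 2-fold (12 higher, 9 lower). The 4 OA libraries did not overlap the 4 untreated ones in 604 of the 672 genes, and in 9.40% of all tested genes. Without WT replicate 2 the test called 436 genes (139 higher, 297 lower), and without OA replicates 2 or 4 it called 140 and 136 genes higher.

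**Figure D1:**
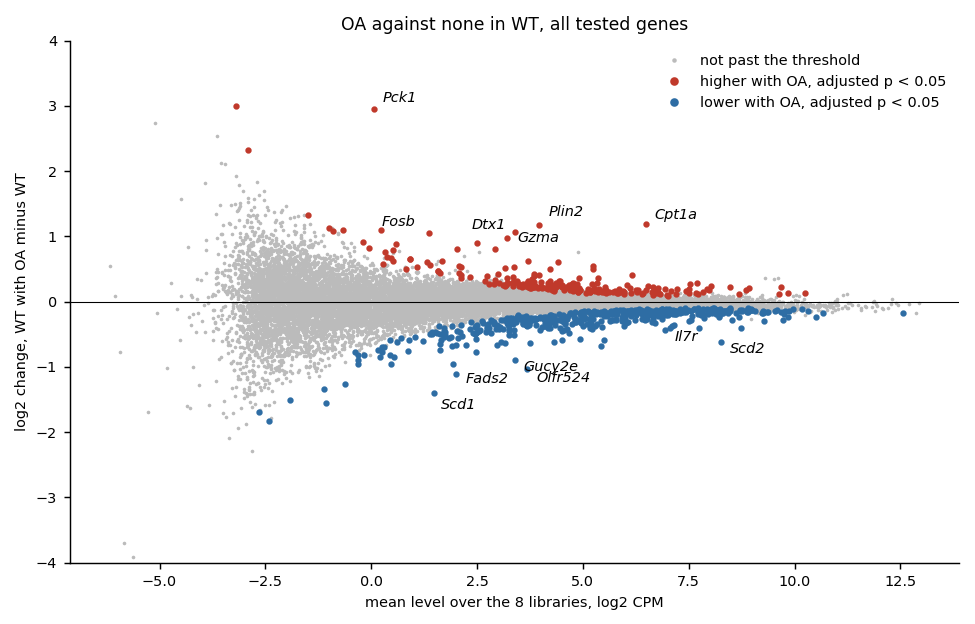
Each point is a tested gene, placed by its mean level over the 8 libraries (log2 CPM, horizontal) and its log2 change with OA in WT (vertical); red points are the 221 genes higher and blue points the 451 genes lower at an adjusted p under 0.05. Cpt1a stands apart among well expressed genes at 1.19, Pck1 lies at 2.95 near 1 CPM, Scd1 and Fads2 lie lowest among the labelled genes, and 1 tested gene with no count in these libraries is not drawn.

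Genes for the entry of fatty acids into mitochondria were among those that rose most. Cpt1a (chromosome 19, 3323301 to 3385732 on GRCm38), the gated step of mitochondrial oxidation, lay at 53.6, 57.3, 53.2 and 54.3 CPM in the 4 WT libraries and at 125, 123, 122 and 127 CPM with OA. The groups are far apart, and every OA library exceeds every untreated one by more than the whole spread of either group. The change was 2.27-fold (log2 1.19, SE 0.03, adjusted p = 1.14e-25). Slc25a20 (chromosome 9, 108662088 to 108684641), the acylcarnitine carrier of the inner membrane, lay at 11.8, 9.66, 9.92 and 9.79 CPM and at 15.4, 15.8, 15.6 and 16.4 CPM. Its OA libraries all lie above the highest untreated one, WT replicate 1, and the change was 1.53-fold (log2 0.62, SE 0.07, adjusted p = 4.50e-07). These were the 2 of 8 tested carnitine shuttle genes that passed, and the list's median log2 change was 0.10, against 0.0030 over all tested genes. Cpt2, which turns acylcarnitines back into acyl-CoA inside the mitochondrion, lay at 6.55 ± 0.374 CPM in WT and 6.30 ± 0.450 CPM with OA (95% confidence interval of the log2 change -0.23 to 0.12). Aldh9a1, an enzyme of carnitine synthesis that was picked after its values were seen, was 1.19-fold higher (adjusted p = 0.000179).

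Of 19 tested genes of mitochondrial beta-oxidation, 5 passed, all higher, and the median log2 change was 0.10. Acadvl, the dehydrogenase that opens the cycle on very long chains, lay at 30.7, 32.0, 29.3 and 30.3 CPM in WT and at 42.3, 45.2, 41.9 and 49.2 CPM with OA, 1.46-fold higher (log2 0.54, SE 0.05, adjusted p = 3.02e-10). Its exons overlap those of Dvl2 on the other strand, which was also higher (log2 0.29, adjusted p = 3.16e-05). Acaa2, the thiolase that closes the cycle, rose from 38.4, 35.7, 35.7 and 34.9 CPM to 44.5, 46.6, 45.7 and 48.3 CPM (1.28-fold, adjusted p = 7.19e-07), again without overlap. Electrons from the dehydrogenases pass to the flavoprotein of Etfa and Etfb and on to the oxidoreductase of Etfdh. Etfdh was 1.33-fold higher (61.9 ± 2.50 against 82.3 ± 0.627 CPM, adjusted p = 1.13e-10), while Etfa and Etfb rose by 0.18 each on the log2 scale (adjusted p = 0.00807 and 0.0127), and Etfb shares exons with Gm45233 on the same strand (log2 0.18). The call of Etfa is lost without OA replicate 4 (adjusted p = 0.0811), and that of Etfb without OA replicate 2 (0.101) or WT replicate 4 (0.0719). Peroxisomal beta-oxidation had 1 of 16 tested genes higher, the transporter gene Abcd3, and 0 by edgeR without OA replicate 4. The share over all tested genes was 1.23%. The 42 tested respiratory chain genes of the nucleus had no call by edgeR, DESeq2 or limma-voom, with 1 higher and 0 lower at an unadjusted p under 0.05 in edgeR, and a median log2 change of 0.0028. For 11 tested genes of the mitochondrial genome there was no call by any of these tools either, nor at an unadjusted p under 0.05, and their share of the counts was 1.66 ± 0.0748% in WT and 1.64 ± 0.0566% with OA (exact 2-sided permutation p = 0.657).

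Storage moved with oxidation through few genes. Plin2 (chromosome 4, 86648386 to 86670060), which coats lipid droplets and is a classical PPAR target, lay at 8.21, 8.59, 10.5 and 11.2 CPM in WT and at 21.4, 20.8, 19.8 and 24.8 CPM with OA. Every OA library was above every untreated one, a 2.26-fold rise (log2 1.18, SE 0.08, adjusted p = 2.07e-12). Hilpda, an inhibitor of droplet lipolysis, had 36 to 72 raw counts in WT and 64 to 102 with OA. It rose 1.84-fold (adjusted p = 0.00809), a call lost without OA replicate 2 (0.0504). Those were the 2 of 17 tested droplet genes that passed, and leaving out 1 library gave 1 (without OA replicate 2) to 4. Over all tested genes 1.23% were higher. Plin3, another coat protein, lay at 25.5 ± 0.678 and 24.2 ± 0.549 CPM (interval of the log2 change -0.18 to 0.04), and Plin1, Plin4 and Plin5 were too low to be tested.

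Of the PPAR receptors, Ppard was the one with a clear level, at 16.4 ± 0.556 CPM in WT and 16.6 ± 0.706 CPM with OA (interval of the log2 change -0.09 to 0.13). Ppara had 0 counts in all 4 WT libraries and 2, 2, 0 and 0 with OA, and Pparg 10 to 18 and 2 to 10 counts. Among 17 tested PPAR targets 4 were higher (Cpt1a, Plin2, Hilpda and Acaa2) and 1 lower, Txnip, an inhibitor of thioredoxin and glucose uptake (135 ± 2.46 against 119 ± 3.43 CPM, adjusted p = 0.000252). Exons of Txnip overlap Gm15441 on the other strand, which was lower too (log2 -0.20). Angptl4, a lipase inhibitor that PPARs induce in many tissues, lay at 1.57 ± 0.321 and 1.62 ± 0.361 CPM (adjusted p = 0.948, interval -0.33 to 0.42), and Pdk4, which closes pyruvate dehydrogenase, had 0 to 6 counts per library and was not tested. Pck1 (chromosome 2, 173153048 to 173159273), the cytosolic enzyme of gluconeogenesis and a PPAR target in fat tissue, went from 10, 18, 4 and 12 raw counts in WT to 83, 77, 85 and 77 with OA. The groups do not touch, and the fitted change was 7.74-fold (log2 2.95, SE 0.35, adjusted p = 3.35e-07) at a level of only 1.85 ± 0.168 CPM with OA. Pck1 was picked after its values were seen.

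**Figure D2:**
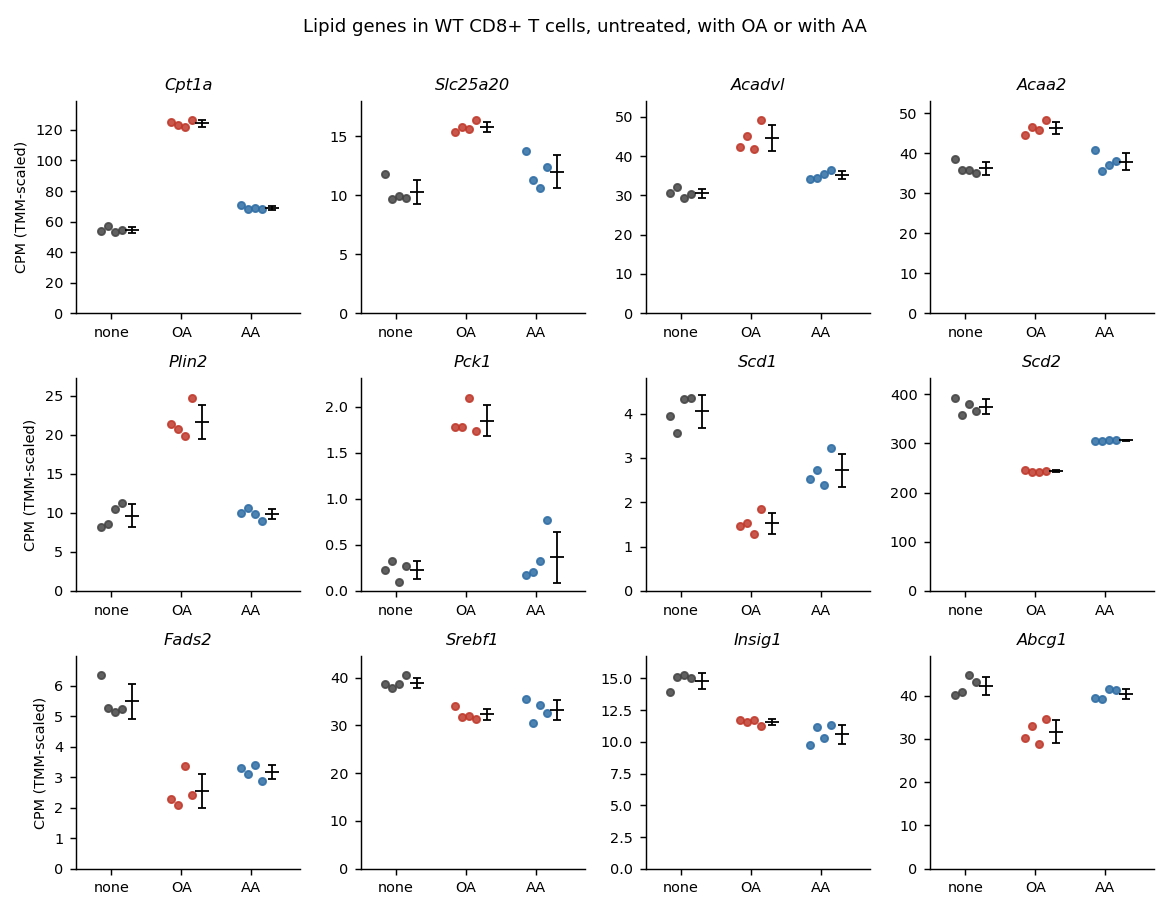
Level of 12 lipid genes (TMM-scaled CPM, from 0) in the 4 untreated, 4 OA and 4 AA libraries of WT; points are libraries, the bar beside them the mean and its SD. With OA Cpt1a, Slc25a20, Acadvl, Acaa2, Plin2 and Pck1 lie above the untreated libraries, and Scd1, Scd2, Fads2, Srebf1, Insig1 and Abcg1 below them.

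Desaturase genes, which make unsaturated fatty acids, were lower with OA in 4 of 8 cases. Scd1 (chromosome 19, 44394451 to 44407709), a delta-9 desaturase whose product is a monounsaturated fatty acid, lay at 3.96, 3.56, 4.33 and 4.36 CPM in WT and at 1.46, 1.53, 1.28 and 1.85 CPM with OA, 2.63-fold lower (log2 -1.40, SE 0.13, adjusted p = 7.47e-10). Scd2 (chromosome 19, 44293676 to 44306864) is the main form in these cells, at 68.7 ± 2.77 RPKM (CPM per kilobase of exons) in WT against 0.838 ± 0.0771 RPKM for Scd1. Its level went from 393, 358, 379.6 and 367 CPM to 246, 241, 243 and 245 CPM. No OA library reaches the lowest untreated one, and it was 1.54-fold lower (log2 -0.62, SE 0.03, adjusted p = 4.05e-16). Fads2 (chromosome 19, 10064164 to 10101503), the delta-6 desaturase of polyunsaturated fatty acid synthesis, went from 6.35, 5.27, 5.13 and 5.25 CPM to 2.30, 2.10, 3.36 and 2.43 CPM (2.16-fold lower, adjusted p = 3.34e-08). Scd4 held 18, 43, 40 and 32 raw counts in WT and 19, 12, 4 and 8 with OA (adjusted p = 0.0217), and its call is lost without any of 4 libraries, WT replicates 2 or 3 or OA replicates 3 or 4 (adjusted p of 0.0623 to 0.0861). Fads1, the delta-5 desaturase beside Fads2, lay at 14.5 ± 0.952 and 15.4 ± 1.63 CPM and did not pass (interval of the log2 change -0.06 to 0.24). Of 8 tested desaturase genes these 4 passed, all lower, and the median log2 change was -0.38.

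Few genes of synthesis from acetyl-CoA passed. Srebf1, which encodes SREBP-1, was 1.20-fold lower (38.9 ± 1.09 against 32.3 ± 1.21 CPM, adjusted p = 0.00106). Fasn, the fatty acid synthase, lay at 68.8 ± 5.61 CPM in WT and 72.9 ± 1.96 CPM with OA (interval of the log2 change -0.0021 to 0.17), and Acaca, which makes its substrate malonyl-CoA, at 43.3 ± 2.72 and 44.3 ± 1.47 CPM (interval -0.06 to 0.12). Of 18 tested genes of synthesis and elongation 2 were lower, Srebf1 and Elovl5, against 1 without any of OA replicates 1 or 3 or WT replicates 1 or 3. Acsl3, which activates fatty acids on droplets and the endoplasmic reticulum, was 1.25-fold lower (adjusted p = 0.00572), though its exons overlap Utp14b on the same strand, which was also lower (log2 -0.45). It was the 1 call among 19 tested uptake and activation genes, where 2.50% of all tested genes were lower. There were 2 calls without any of OA replicates 2 or 3 or WT replicate 3.

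Some genes of sterol control were lower with OA. Insig1, which holds the SREBP complex in the endoplasmic reticulum and is itself an SREBP target, went from 14.8 ± 0.619 CPM in WT to 11.6 ± 0.229 CPM with OA, 1.28-fold lower (adjusted p = 1.84e-05). Mylip, a ubiquitin ligase induced by LXR, was 1.25-fold lower (adjusted p = 1.41e-05). In cholesterol synthesis 2 of 20 tested genes were lower, Cyp51 (1.16-fold, adjusted p = 0.000264, exons shared with Akap9) and Fdps, and 1 was higher, Tm7sf2. Over all tested genes 2.50% were lower and 1.23% higher. Leaving out 1 library gave 1 to 3 lower genes, with 1 without any of OA replicates 1 or 3 or WT replicates 1 or 3 and 3 without OA replicate 4. It gave 0 to 2 higher ones by edgeR, with 0 without any of OA replicates 2, 3 or 4 or WT replicate 4 and 2 without WT replicate 3. Hmgcs1, an SREBP target at the head of the pathway, lay at 54.3 ± 2.30 and 52.0 ± 1.02 CPM and did not pass (interval of the log2 change -0.13 to 0.01).

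Of 12 tested LXR targets 6 were lower: Scd1, Scd2 and Srebf1, which also belong to the lists above, with Mylip, Abcg1 and Arl4c. The list's median log2 change was -0.21. Abcg1, a sterol exporter, went from 40.1, 40.8, 44.6 and 43.2 CPM to 30.2, 33.1, 28.8 and 34.6 CPM, with no overlap (1.33-fold lower, adjusted p = 1.06e-06). Arl4c, a small GTPase, was 1.20-fold lower (127 ± 1.60 against 106 ± 2.97 CPM, adjusted p = 6.79e-06). Abca1, the classical LXR target and exporter, lay at 21.1 ± 1.62 and 19.4 ± 1.32 CPM and did not pass (interval of the log2 change -0.25 to 0.01).

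**Figure D3:**
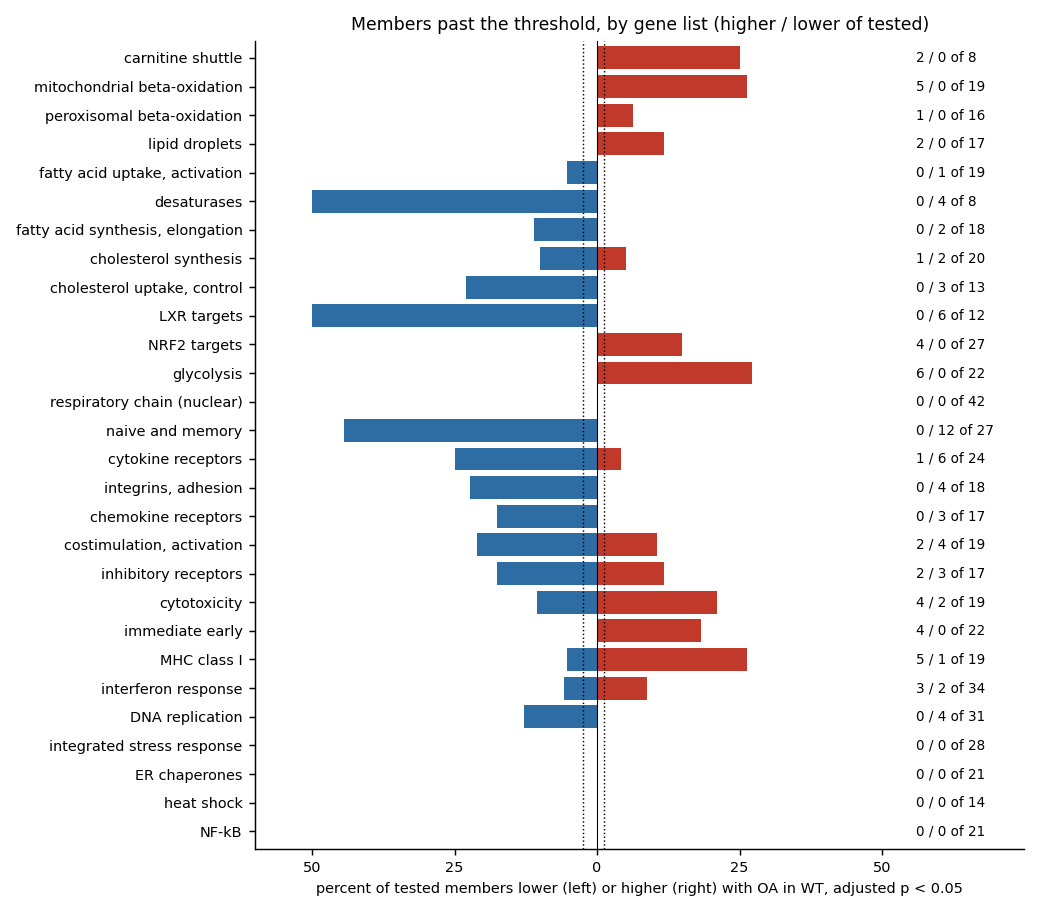
Bars give the percent of the tested members that were, for 28 of the 68 gene lists, higher (red, right) or lower (blue, left) with OA in WT at an adjusted p under 0.05, with the counts at the right; dotted lines mark the share over all tested genes, 1.23% higher and 2.50% lower. Among the lists drawn, the desaturase, LXR target and naive and memory lists reach farthest to the left, and glycolysis, MHC class I, mitochondrial beta-oxidation and carnitine shuttle farthest to the right.

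Some genes of defence against lipid oxidation were higher, where 1.23% of all tested genes were higher and 2.50% lower. Of 27 tested targets of NRF2, the antioxidant transcription factor, 4 were higher. Gclc, which starts glutathione synthesis, was 1.14-fold higher (38.7 ± 2.02 against 44.2 ± 1.20 CPM, adjusted p = 0.00444), and Ftl1, the ferritin light chain that stores iron, 1.19-fold (adjusted p = 0.00674, exons shared with Gm10252). Txnrd1, the thioredoxin reductase, was 1.09-fold higher (adjusted p = 0.0212), a call lost without filter (0.0530) and without any of 4 libraries, WT replicates 1 or 4 or OA replicates 2 or 3. Nqo1, a quinone reductase, had 0.974 ± 0.156 CPM in WT and 1.45 ± 0.238 CPM with OA (adjusted p = 0.0458). That call is lost with limma-voom (0.138), with only the groups compared (0.108), with a stricter filter (0.0563) and without any of 6 libraries, WT replicates 1, 2 or 4 or OA replicates 1, 2 or 3. Without OA replicate 2 the list had 2 calls. Ferroptosis defence had 5 of 23 tested genes higher, among them Gclc, Ftl1 and Txnrd1, and 2 lower, the fatty acid genes Scd1 and Acsl3, and without WT replicate 4 the higher ones were 2. Gpx4, the peroxidase that repairs lipid peroxides, lay at 40.5 ± 1.72 and 39.3 ± 1.61 CPM and did not pass (interval of the log2 change -0.14 to 0.05), and Acsl4, which activates polyunsaturated fatty acids, lay at 69.0 ± 2.33 and 65.5 ± 1.89 CPM (interval -0.15 to -0.0006). Slc7a11, the cystine importer, had 22 to 42 counts in WT and 8 to 24 with OA (adjusted p = 0.304). Tfrc, the transferrin receptor that takes up iron, was 1.11-fold lower (148 ± 3.43 against 133 ± 2.28 CPM, adjusted p = 0.0013), 1 of 2 lower genes among 16 tested that promote ferroptosis, and 1 was lower without OA replicate 1 or WT replicate 2. Of the 20 genes tied to the study's subject 3 were lower, Tfrc, Gzmb and Tox, the factor of exhausted T cells (1.21-fold, 12.1 ± 1.05 against 10.1 ± 0.639 CPM, adjusted p = 0.0275). The Tox call is lost without WT replicate 2 (0.188) or OA replicates 2, 3 or 4 (0.0535 to 0.0934).

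Some glycolysis genes rose by small steps. Of 22 tested, 6 were higher, and the median log2 change was 0.10. Pfkl, the phosphofructokinase of the committed step, was 1.24-fold higher (19.2 ± 0.625 against 23.9 ± 2.15 CPM, adjusted p = 0.000214), Aldoa, the aldolase, 1.18-fold (adjusted p = 5.99e-05) and Tpi1, the triose phosphate isomerase, 1.18-fold (adjusted p = 0.00021). Aldoa overlaps Fam57b, which was higher as well (log2 0.27), and Tpi1 overlaps Spsb2. The other 3 were Slc16a3, Eno1 and Pkm. Leaving out 1 library gave 4 to 7 calls in this list. Bnip3, a mitophagy receptor of the hypoxia response, went from 6.62, 7.40, 7.65 and 8.02 CPM to 10.6, 9.83, 10.7 and 11.2 CPM (1.43-fold higher, adjusted p = 6.99e-07). Hif1a, the oxygen-regulated factor itself, was 1.12-fold lower (651 ± 10.9 against 584 ± 14.1 CPM, adjusted p = 0.00114). Its exons overlap Gm15283 on the other strand, which was also lower (log2 -0.16). Of 22 tested hypoxia genes 1 was higher and 2 were lower, or 1 lower without WT replicate 1. Over all tested genes 1.23% were higher and 2.50% lower.

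Many genes of naive and memory T cells were lower with OA. Of 27 tested, 12 were lower, with a median log2 change of -0.11 over the list. Leaving out 1 library gave 11 or 12. Il7r (chromosome 15, 9506161 to 9529876), the interleukin 7 receptor chain that keeps resting T cells alive, lay at 143, 143, 139 and 145 CPM in WT and at 112, 99.7, 104 and 104 CPM with OA (1.36-fold lower, log2 -0.44, SE 0.04, adjusted p = 6.00e-10). Every OA library lies below every untreated one. Dapl1, a marker of naive and resting memory cells, went from 29.9, 27.2, 24.8 and 27.7 CPM to 17.9, 18.8, 16.7 and 19.5 CPM (log2 -0.59, adjusted p = 1.07e-07), and Ly6c2, a surface protein of memory cells with a near-identical paralog, from 4.96 ± 0.215 to 3.38 ± 0.387 CPM (adjusted p = 0.00125). The transcription factors of the list fell less: Eomes 1.25-fold (adjusted p = 0.000141), Lef1 1.12-fold (0.00122), Myb 1.13-fold (0.00121), Ets1 1.12-fold (0.00021) and Satb1 1.09-fold (0.00683). S1pr1, the receptor for exit from lymphoid organs, was 1.14-fold lower (7.63e-05). Il6ra, an interleukin 6 receptor chain, was 1.23-fold lower (0.00684). Tcf7, the factor of stem-like T cells, lay at 776 ± 21.2 and 739 ± 13.3 CPM and did not pass (interval of the log2 change -0.14 to -0.0042). Exons of Myb overlap Gm26577 on the other strand, which was lower too (log2 -0.21). In bulk samples, fewer cells of a type and less RNA per cell cannot be told apart.

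Some receptors for cytokines and for adhesion fell as well. Of 24 tested cytokine receptor genes 6 were lower and 1 was higher, where 2.50% of all tested genes were lower and 1.23% higher. Il18r1, a receptor chain for interleukin 18, was 1.30-fold lower (44.0 ± 2.23 against 33.9 ± 1.34 CPM, adjusted p = 7.28e-08), Tgfbr2, of the TGF-beta receptor, 1.13-fold (adjusted p = 0.000185) and Ifngr1, of the interferon gamma receptor, also lower (log2 -0.13, adjusted p = 0.0047). Il12rb1, shared by the receptors for interleukins 12 and 23, was 1.21-fold higher (24.4 ± 1.69 against 29.5 ± 0.894 CPM, adjusted p = 0.000336). Of 18 tested genes of the adhesion list 4 were lower. Itga4, the integrin chain that binds VCAM-1, went from 146, 152, 154 and 157 CPM to 115, 115, 121 and 112 CPM (1.32-fold lower, adjusted p = 1.16e-11), Itgb3 was 1.17-fold lower (adjusted p = 3.88e-05) and Itgam, the integrin chain CD11b, 1.61-fold (adjusted p = 0.00189). Of 17 chemokine and homing receptor genes 3 were lower, among them S1pr1 and Ccr2 (1.45-fold, adjusted p = 0.000522). Of 11 tested NK receptor genes 2 were lower, Klrd1, which encodes CD94 (1.20-fold, adjusted p = 3.52e-06), and Klrk1, which encodes NKG2D (1.11-fold, adjusted p = 0.00181).

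Some of these genes are shared with other cell types, whose markers were counted. The summed level of the 6 macrophage and monocyte markers ran from 11.4 to 15.1 CPM in WT and from 9.11 to 11.1 CPM with OA. The 1 that passed was Itgam, at 4.65 ± 0.984 and 2.89 ± 0.264 CPM. In this list 5 markers had a negative log2 change and 1 a positive one, of 1.58. That of the 9 dendritic cell markers ran from 33.7 to 37.7 CPM and from 28.2 to 30.0 CPM, and the 2 that passed, both lower, were Batf3 and Cd74, with 0 calls by edgeR without OA replicate 1. None of the markers of either list was at 0 in all 8 libraries. NK cell markers summed to 18.4 to 20.8 CPM and 14.9 to 16.3 CPM, with Eomes as the lower one, Klra8 at 0 and Ncr1 at 0 to 4 counts per library. Eomes, also counted among the T cell factors above, made up most of these sums, at 18.2 to 20.5 and 14.5 to 16.0 CPM. For B cells the sums were 4.40 to 5.63 and 4.14 to 4.59 CPM, and 3 of 5 neutrophil markers were at 0. Erythroid markers summed to 0.552 to 1.20 and 0.395 to 1.06 CPM, platelet markers to 8.27 to 10.003 and 9.56 to 11.6 CPM and stroma markers to 108 to 112 and 102 to 108 CPM, with no call by edgeR, DESeq2 or limma-voom in these 3 lists and at most 1 gene of each at an unadjusted p under 0.05. The part of other cells in the results was not tested.

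Inhibitory and costimulatory receptors moved both ways. Of 17 tested inhibitory receptor genes 2 were higher and 3 lower. Cd160, an inhibitory receptor of activated CD8 cells, went from 27.5, 25.9, 26.9 and 25.4 CPM to 33.0, 32.9, 34.4 and 35.6 CPM (1.29-fold higher, adjusted p = 3.83e-06), and Cd274, the PD-1 ligand PD-L1, from 168 ± 8.43 to 202 ± 7.57 CPM (1.20-fold higher, adjusted p = 8.01e-05). Btla was 1.27-fold lower (adjusted p = 4.31e-06) and Ctla4 1.12-fold lower (adjusted p = 0.00311). Pdcd1, which encodes PD-1, did not pass (log2 0.03, interval -0.11 to 0.16, adjusted p = 0.893, 5.59 ± 0.311 RPKM in WT and 5.70 ± 0.333 RPKM with OA). Of 19 tested costimulation and activation genes 2 were higher and 4 lower. Leaving out 1 library gave 1 (without WT replicate 2) to 3 (without WT replicate 3) higher and 3 to 5 lower. Cd226, an activating receptor that competes with TIGIT, went from 71.0, 72.1, 72.0 and 69.9 CPM to 55.8, 54.3, 56.3 and 54.3 CPM (1.29-fold lower, adjusted p = 5.99e-09). Cd44, an adhesion receptor of activated and memory cells, was 1.16-fold lower (adjusted p = 0.000391), Tnfrsf4, which encodes OX40, 1.29-fold lower (adjusted p = 0.00133), and the early activation marker Cd69 1.17-fold higher (adjusted p = 0.000391).

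Effector genes were split as well. Gzma (chromosome 13, 113093825 to 113100979), a granzyme of cytotoxic granules, lay at 6.44, 5.08, 6.96 and 6.47 CPM in WT and at 12.3, 11.7, 11.6 and 13.1 CPM with OA (1.96-fold higher, log2 0.97, SE 0.09, adjusted p = 2.26e-09). Gzmb, another granzyme, went from 204, 199.8, 194 and 195 CPM to 176, 183, 177 and 185 CPM (log2 -0.14, adjusted p = 0.00591). These granzyme genes moved in opposite directions. Fasl, the death ligand, was 1.46-fold higher (3.42 ± 0.380 against 5.02 ± 0.594 CPM, adjusted p = 0.00572). Among 19 tested cytotoxicity genes 4 were higher and 2 lower, against 2 higher without OA replicate 4 and 1 lower without OA replicate 3. Prf1, which encodes perforin, lay at 2.34 ± 0.513 and 2.19 ± 0.294 CPM (adjusted p = 0.79) and Tnf at 2.82 ± 0.400 and 3.41 ± 0.455 CPM (adjusted p = 0.262).

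Signalling genes with fast turnover moved too. Fosb, an AP-1 subunit, went from 1.72, 1.71, 1.56 and 1.73 CPM to 4.08, 3.58, 3.11 and 3.13 CPM (2.07-fold higher, log2 1.05, SE 0.15, adjusted p = 9.04e-06), and Egr1, the early factor downstream of ERK, from 12.9, 12.2, 11.2 and 12.8 CPM to 15.6, 16.6, 16.7 and 16.7 CPM (adjusted p = 5.45e-05). With Zfp36 and Myc they were the 4 of 22 tested immediate early genes that passed, all higher, and leaving out 1 library gave 2 (without OA replicate 2) or 3. Dusp5 and Dusp4, phosphatases that switch off ERK, moved apart, at 1.21-fold higher (adjusted p = 0.00225) and 1.26-fold lower (adjusted p = 0.00159). Cish, a STAT5-induced brake on receptor signalling, was 1.23-fold higher (adjusted p = 0.0016), Bhlhe40, a factor of cytokine production, 1.16-fold higher (adjusted p = 3.16e-05) and Cblb, a ligase that raises the activation threshold, 1.14-fold lower (adjusted p = 0.00021). Exons of Cish and Bhlhe40 overlap Gm17041 and 0610040F04Rik on the other strand, both higher as well (log2 0.53 and 0.27). Dtx1, a Deltex ligase and Notch target, went from 5.66, 7.45, 7.99 and 6.24 CPM to 13.1, 14.4, 14.2 and 15.5 CPM (2.09-fold higher, log2 1.06, SE 0.09, adjusted p = 5.39e-11), and its relative Dtx4 from 8.09, 9.53, 7.80 and 8.40 CPM to 12.4, 12.5, 12.6 and 11.7 CPM (1.45-fold, adjusted p = 7.05e-06). These Deltex genes were the 2 of 18 tested genes of the Notch list that passed. Of 24 tested genes tied to FOXO1 and PI3K, 6 were lower, among them Il7r, S1pr1, Trib2, Tsc22d3 and Txnip, and 2 higher. Tsc22d3, the glucocorticoid-induced leucine zipper, was 1.15-fold lower (adjusted p = 0.00138), and Arrdc3, an arrestin-like adaptor, 1.32-fold higher (adjusted p = 1.00e-05).

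**Figure D4:**
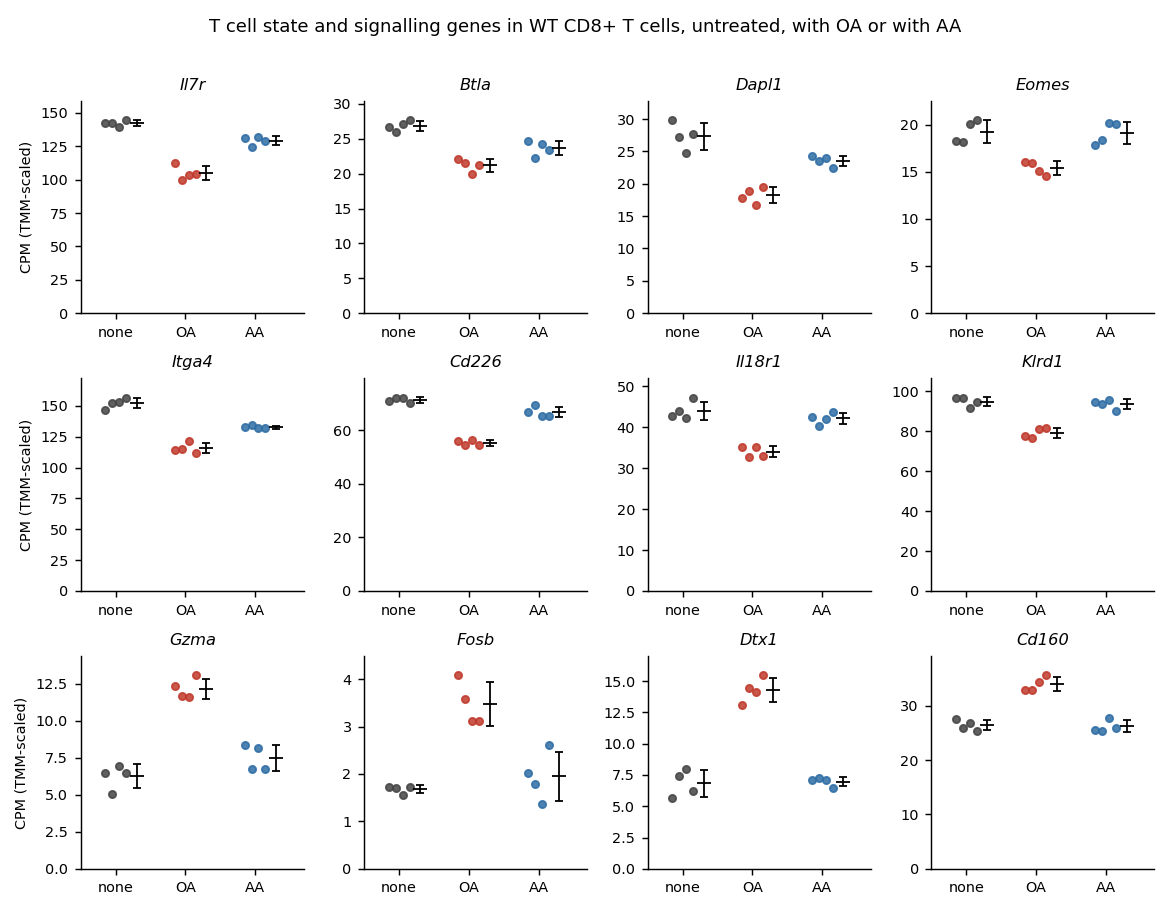
Level of 12 genes of T cell state and signalling (TMM-scaled CPM, from 0) in the 4 untreated, 4 OA and 4 AA libraries of WT; points are libraries, the bar beside them the mean and its SD. With OA Il7r, Btla, Dapl1, Eomes, Itga4, Cd226, Il18r1 and Klrd1 lie below the untreated libraries and Gzma, Fosb, Dtx1 and Cd160 above them.

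Some genes of MHC class I antigen presentation were slightly higher. Of 19 tested genes 5 were higher and 1 lower, with a median log2 change of 0.08. H2-D1, a classical class I heavy chain, was higher (log2 0.14, 1154 ± 26.2 against 1269 ± 26.9 CPM, adjusted p = 0.00439), the nonclassical chains H2-Q4 and H2-T22 were higher by log2 0.20 and 0.19 (adjusted p = 4.71e-05 and 0.000532) and Tapbpl, a peptide editor, 1.13-fold (adjusted p = 0.00021). H2-Q6 was 1.14-fold lower (adjusted p = 2.58e-05). The heavy chain genes are close paralogs whose reads could be split by the counting, and H2-Q4 shares exons with Gm11131, so their values are uncertain. Of 34 tested interferon response genes 3 were higher and 2 lower. Leaving out 1 library gave 2 to 4 higher and 0 or 1 lower by edgeR, with none lower without OA replicate 3 or WT replicate 3. Gbp4 and Gbp7, guanylate-binding proteins of cell-autonomous immunity, were 1.17-fold and 1.16-fold higher (adjusted p = 4.36e-06 and 1.48e-05), and their family of near copies had 4 of 11 tested genes higher. On the same strand, Gbp7 shares exons with Gm43802, also higher (log2 0.21), and Gbp4 with Gbp9, which did not pass. Iigp1, an immunity-related GTPase, went from 188, 189, 191 and 184 CPM to 228, 229, 231 and 229 CPM (1.22-fold higher, adjusted p = 1.61e-08), with 5 of 8 tested genes of its family higher. These 2 families were picked after their values were seen.

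Many of the remaining genes with the largest changes stand outside the groups above. Higher were Tgm2, a transglutaminase (1.86-fold, 3.97 ± 0.358 against 7.36 ± 0.837 CPM), Klf11, a Krueppel-like transcription factor (1.76-fold), Frmd4b, a FERM domain protein (1.74-fold), Tln2, a talin that links integrins to actin (1.53-fold), Mt1, a metallothionein (1.52-fold), and Bzrap1 (1.52-fold). Lower were Olfr524, an olfactory receptor gene (2.05-fold, 16.0, 18.7, 16.1 and 18.1 CPM against 8.98, 8.70, 10.2 and 5.85 CPM), and Dntt, the template-free polymerase of receptor rearrangement (1.93-fold, 4.99, 4.74, 5.13 and 5.34 against 2.28, 3.01, 2.84 and 2.34 CPM). Gucy2e, a guanylate cyclase, was 1.86-fold lower (13.6 ± 0.681 against 7.33 ± 0.669 CPM), S100a6, a calcium-binding protein, 1.67-fold, Slc6a19, an amino acid transporter, 1.59-fold, Ms4a4c, of the MS4A membrane proteins, 1.58-fold, Ggt1, which breaks down extracellular glutathione, 1.58-fold, Cecr6 1.56-fold and Igfbp4, which binds insulin-like growth factors, 1.56-fold. Their adjusted p ran from 1.16e-11 for Gucy2e to 0.00487 for Mt1. In each of them the libraries of both groups do not overlap, which the rule for naming them asked for.

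Most lists of stress, growth and division counted here had no call by edgeR, where 1.23% of all tested genes were higher and 2.50% lower. The integrated stress response had no call among 28 tested genes by edgeR (3 higher and 5 lower at an unadjusted p under 0.05), with 1 lower by DESeq2 and 1 in each direction by limma-voom. Chaperones of the endoplasmic reticulum had no call among 21 (5 higher and 1 lower unadjusted), with 1 higher by each of the other tools. Heat shock genes had no call among 14 (0 higher and 2 lower unadjusted) and none by the other tools. For NF-kB genes there was no call among 21 (0 higher and 2 lower unadjusted), with 1 lower by each of the other tools. Mitosis genes had no call among 26 (1 higher and 4 lower unadjusted), with 1 lower by each of the other tools, while 4 of 31 DNA replication genes were lower, and 0 were lower by edgeR without WT replicate 1. Cytosolic ribosomal protein genes had no call among 75 (1 higher and 2 lower unadjusted), with none by DESeq2 and 1 lower by limma-voom. In the ribosome biogenesis and Myc list 3 of 25 tested genes were lower and 1 higher. Leaving out 1 library gave 2 to 4 lower and 0 or 1 higher there.

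The same fatty acid given to KO cells shares no library with the WT comparison. There 1887 of the tested genes were higher (10.5%) and 2296 lower (12.7%). Of the 221 genes higher in WT, 119 were higher in KO too, which is 53.8% of the WT list and 6.31% of the KO list, 84 were not called in KO and 18 were lower there. Of the 451 genes lower in WT, 284 were lower in KO (63.0% of the WT list, 12.4% of the KO list), 137 were not called and 30 were higher. Over the 672 genes the log2 changes in both genotypes had a Pearson r of 0.73, a description across genes, which are not independent. The genotypes differ in more than the deletion. In the 7 KO libraries Trbv12-1 took 3.27% to 4.04% of the Trbv counts, Xist lay at 2.98 to 5.35 CPM and Ddx3y at 98.0 to 107 CPM, all outside the ranges of WT given above, so the deletion cannot be told apart from receptor and sex.

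**Figure D5:**
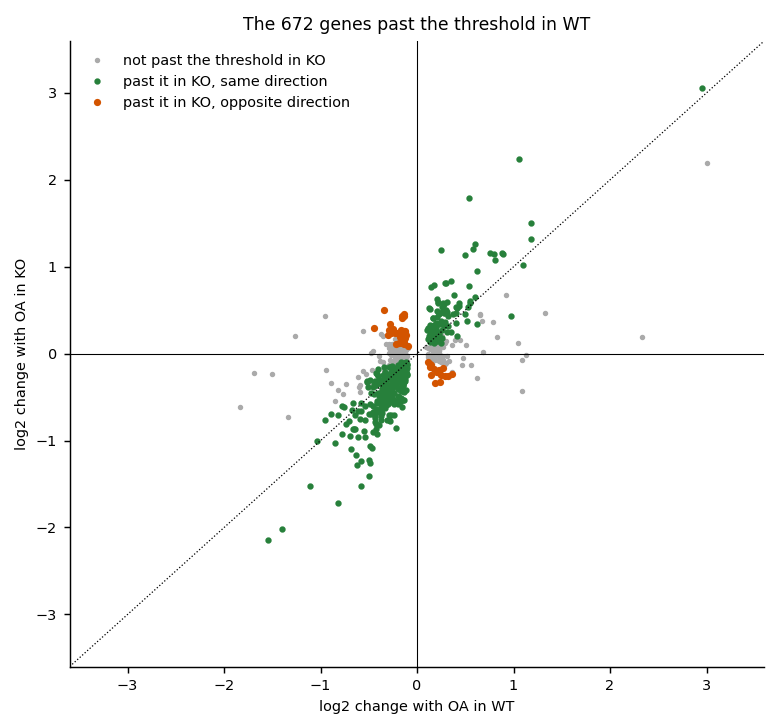
Log2 change with OA in WT (horizontal) and in KO (vertical) for the 672 genes past the threshold in WT; green points passed in KO in the same direction (119 higher, 284 lower), orange points in the opposite direction (18 and 30) and grey points did not pass, with the dotted line for equal changes. The orange points fill the upper left and the lower right of the plot.

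The difference between both effects was tested by its interaction term, and 2256 genes (12.5%) passed, 1063 with a higher and 1193 with a lower change in KO. With upper quartile factors the split was 1261 to 925. The 6 lipid genes compared here moved the same way in both genotypes. The log2 changes in WT and KO were 1.18 and 1.51 for Plin2 (adjusted p of the difference 0.0748) and 2.95 and 3.06 for Pck1 (0.938), which did not pass. They were 1.19 and 1.32 for Cpt1a (0.0443), 0.62 and 0.95 for Slc25a20 (0.0406), -1.40 and -2.02 for Scd1 (0.0233) and -0.62 and -1.28 for Scd2 (1.56e-11), each larger in KO. The call of the difference is lost in 9 alternatives for Cpt1a, 8 for Slc25a20 and 5 for Scd1, most of them fits without 1 library (adjusted p up to 0.212, 0.122 and 0.0933). Not all lipid genes were alike in both genotypes. Acaca, Hmgcs1 and Abca1 did not pass in WT and were lower in KO (log2 -0.19, -0.46 and -0.75). Of 20 tested cholesterol synthesis genes 2 were lower in WT and 14 in KO, where 12.7% of all tested genes were lower. The Deltex genes had the largest positive differences among the named genes, with 1.06 and 2.24 for Dtx1 (4.36e-07) and 0.54 and 1.79 for Dtx4 (4.06e-09). Other genes turned. Cd160 was higher in WT and lower in KO (0.36 and -0.24, 8.27e-07), as was Tpi1 (0.24 and -0.32, 3.72e-08), and 13 of the 22 tested glycolysis genes were lower in KO. Ifngr1 was lower in WT and higher in KO (-0.13 and 0.45, 1.56e-11), and so were Lef1 (-0.17 and 0.27, 8.29e-08), S1pr1 (-0.19 and 0.13, 9.26e-06) and Ctla4 (-0.16 and 0.13, 0.000155). Fosb rose by 1.05 in WT and changed by 0.12 in KO (0.00452). Ccr9, a gut homing receptor, and Plaur, the urokinase receptor, had large positive differences (1.08 and 0.94) and did not pass in WT (-0.05 and 0.02), and Aldoc, an aldolase, had a negative one (-1.12).

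OA was also compared directly with AA, which has more double bonds, although the labels do not say whether doses and times match. With OA 180 genes were higher and 351 lower than with AA, 531 in all (2.95%), and 349 without OA replicate 4. AA against none called 75 genes (0.416%), 29 higher and 46 lower (22 and 56 with upper quartile factors), and both comparisons with untreated cells share the WT libraries. By edgeR, the log2 change with AA against none passed for Cpt1a (0.34, adjusted p = 1.04e-08), Scd2 (-0.29, 2.28e-07) and Fads2 (-0.79, 6.25e-05). It also passed for Itga4 (-0.20, 0.000154), Insig1 (-0.48, 2.28e-07) and Cyp51 (-0.34, 2.28e-07). These moved the same way with OA. Scd1 passed too (-0.57, 0.0102), a call lost without AA replicates 1 or 3 or WT replicate 4. Plin2 (0.04, 0.959), Pck1 (0.64, 0.766) and Il7r (-0.14, 0.139) did not pass with AA. Pck1, below the level asked for in naming (mean log2 CPM of at least 1), was higher with OA than with AA (log2 difference 2.32, adjusted p = 1.28e-05). Among the genes higher with OA that the naming rule kept, Plin2 differed most (21.7 ± 2.16 CPM with OA, 9.88 ± 0.654 CPM with AA, log2 difference 1.14, adjusted p = 4.91e-12). Next came Dtx1 (1.03, 1.10e-10), Cpt1a (124 ± 2.11 against 69.0 ± 1.35 CPM, 0.85, 5.33e-21), Bzrap1 (0.83, 4.69e-13) and Fosb (0.83, 0.000342). Lower with OA than with AA were Nqo1 (1.45 ± 0.238 against 3.03 ± 0.638 CPM, -1.05, 5.19e-06), Olfr524 (-0.87, 1.14e-05), Scd1 (-0.83, 7.39e-05) and Slc6a19 (-0.80, 0.000253). Txnrd1 was lower with OA than with AA as well (-0.44, 1.99e-11). Against untreated cells Nqo1 and Txnrd1 were higher with either fatty acid. With OA both calls are lost in some alternative fits, as given above. The log2 change was 0.58 with OA and 1.63 with AA for Nqo1, and 0.13 and 0.56 for Txnrd1. Il7r and Itga4 were lower with OA than with AA (log2 difference -0.30 and -0.20, adjusted p = 4.03e-06 and 3.72e-05). Of the sterol genes Insig1 and Cyp51 did not differ past the threshold: the log2 difference was 0.12 for Insig1 (0.283) and 0.13 for Cyp51 (0.0579), while that of Hmgcs1 did (0.25, 1.82e-05). Against untreated cells Hmgcs1 changed by log2 -0.06 with OA and -0.31 with AA. Fads2 lay at 2.55 ± 0.557 CPM with OA and 3.17 ± 0.230 CPM with AA and did not pass (-0.32, 0.203).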

How the data were processed

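Polyadenylated RNA was sequenced with a stranded kit, per the labels' protocols. The submitters' processing notes name Trimmomatic 0.36, featureCounts (Subread 1.5.1) and the build GRCm38. Which aligner, annotation release or strand setting they used is not given in the sources used here. Raw counts were deposited by the authors for 49492 genes and 23 libraries, with gene coordinates. If strand was ignored, genes with overlapping exons could share reads. Of the counts from 1 to 19, between 66.5% and 70.7% were even, as when mates are counted singly.

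filterByExpr (minimum count 10, minimum total 15) left 18015 genes, and TMM factors were 0.961 to 1.03. All 23 libraries entered 1 fit with a mean per group (edgeR 4.0.16, R 4.3.3), and p-values were adjusted over all tested genes at a threshold of 0.05. Intervals are 95% intervals of the fitted log2 change, not adjusted for the number of genes. CPM values are scaled by TMM and given as mean ± SD. Named were the 12 largest changes per direction (mean log2 CPM of at least 1, no overlap, no predicted genes, pseudogenes or receptor segments), genes of the study's subject, members of 68 gene lists (up to 5 per direction in each, as far as there was room), and 5 per direction for OA against AA and for the genotype difference. Other named genes, such as comparison genes that did not pass, were chosen after their values were seen. Members and lists were chosen with earlier results of these data known. Some genes, and the results that need them, are not reported here. Lists are described by counts and medians, with no set test. Results were recomputed with DESeq2 1.42.0, with limma-voom 3.58.1 and quality weights, under RLE or upper quartile scaling, with the filter dropped or made stricter (1 CPM in 4 libraries and 10 CPM in 1), on the compared groups alone, with a replicate block, and without each library.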

Additional observations from a re-analysis of the deposited data

Results flagged for a closer look

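In 13 of 248 sets of 4 libraries examined (each named gene in either group), 1 library stood apart from the other 3 by Dixon's test, and chance gives about 1 in 20. In untreated WT a single highest library stood apart for Slc25a20 at 11.8 CPM, Pparg at 0.440 CPM, Fads2 at 6.35 CPM, Slc7a11 at 0.954 CPM, Itgam at 6.12 CPM and Hpgds at 33.5 CPM. In untreated WT a single lowest library stood apart for Insig1 at 13.9 CPM, Itgb3 at 112 CPM and Fosb at 1.56 CPM. In WT with OA a single highest library stood apart for Aldh9a1 at 28.9 CPM, Pck1 at 2.10 CPM and Tfrc at 137 CPM. In WT with OA a single lowest library stood apart for Egr1 at 15.6 CPM.

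The log2 change with OA differed between KO and WT, by edgeR's interaction term, in 53 of the named genes. The difference (KO minus WT) was positive for Cpt1a 0.14, Slc25a20 0.33, Txnrd1 0.20, Hif1a 0.25, S1pr1 0.32, Lef1 0.44, Myb 0.16, Satb1 0.13, Ifngr1 0.58, Itgb3 0.20, Ctla4 0.29, Cd274 0.32, Cish 0.52, Dusp5 0.29, Dtx1 1.18, Dtx4 1.25, Gbp4 0.25, Gbp7 0.36, Frmd4b 0.34, Bzrap1 0.66, Hpgds 0.63, Iigp1 0.53, Ccr9 1.08 and Plaur 0.94. It was negative for Txnip -0.21, Scd1 -0.62, Scd2 -0.66, Srebf1 -0.44, Fasn -0.20, Acaca -0.23, Cyp51 -0.34, Hmgcs1 -0.39, Abcg1 -0.51, Abca1 -0.63, Mylip -0.27, Pfkl -0.34, Aldoa -0.32, Tpi1 -0.56, Il7r -0.35, Eomes -0.25, Il18r1 -0.19, Il12rb1 -0.41, Ccr2 -0.42, Klrk1 -0.27, Cd160 -0.60, Pdcd1 -0.36, Gzma -0.54, Gzmb -0.40, Fosb -0.92, Bhlhe40 -0.24, H2-Q4 -0.15, H2-Q6 -0.21 and Aldoc -1.12. There were 22 alternative fits, among them fits without 1 library, leaving aside the replicate block given below. The stricter filter did not test genes that stay under 10 CPM in every library, such as Fosb and Aldoc. Of these 53 differences, 39 passed in each of the fits that tested them. The other 14 lost the call in at least 1: Gzma in 16, Ccr2 in 14, H2-Q4 in 11, Frmd4b in 11, Cpt1a in 9, Satb1 in 9, Slc25a20 in 8, Scd1 in 5, Fasn in 5, Eomes in 5, Myb in 4, Il18r1 in 4, Acaca in 1 and Mylip in 1. WT and KO libraries also differ in receptor and sex-linked transcripts, and what part these have in the differences was not tested.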

How the results depend on the processing

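Of the 124 genes named, 103 passed in WT, and 96 of these passed under every alternative run that tested them. Genes that stay under 10 CPM in every library, such as Pck1, Scd1 and Fads2, were not tested under the stricter filter. No named gene that passed changed sign. The other 7 lost the call in at least 1 alternative: Etfa, Etfb, Hilpda, Scd4, Txnrd1, Nqo1 and Tox. Leaving out 1 library gave 436 to 642 genes for OA against none in WT, 136 to 211 higher and 297 to 431 lower, with 436 in all without WT replicate 2. For AA against none it gave 48 to 73 genes, with 48 without WT replicate 1, and DESeq2 gave 137. For OA against AA it gave 349 to 412. DESeq2 called 885 genes with OA in WT and shared 665 of the 672 in the same direction, limma-voom 773 and upper quartile factors 742, of which 23.7% were higher against 32.9%. Without a library, genes that did not pass changed sign at small values: the log2 change ran from -0.0042 to 0.0396 for Ppard, -0.0757 to 0.137 for Angptl4, -0.0034 to 0.0617 for Pdcd1, -0.0218 to 0.384 for Plpp1, -0.0226 to 0.0538 for Plaur and -0.0783 to 0.253 for Aldoc. Same-numbered WT and OA libraries did not deviate together (r of -0.25, -0.06, -0.36 and -0.10 over 6883 genes). Differently numbered ones gave r of -0.25 to 0.33. No sign was seen that the numbers pair them, but correlations among so few libraries cannot exclude pairing. With the replicate block 595 genes were called, 592 of them among the 672 in the same direction. It took the call from 7 of the 53 differences between KO and WT: Cpt1a, Slc25a20, Satb1, Ccr2, Gzma, H2-Q4 and Frmd4b (adjusted p of 0.0503 to 0.0688). Where settings moved a count, the cause was not tested. Low counts per library limit what can be said of Pck1, Scd4, Hilpda, Slc7a11 and the PPAR genes.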

Other observations

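Some genes outside the groups above also moved with OA in WT and were picked after their values were seen. Ass1, which makes argininosuccinate on the way to arginine, went from 55.2, 53.4, 53.8 and 53.2 CPM to 34.9, 37.2, 32.9 and 38.8 CPM (log2 -0.58, edgeR adjusted p = 2.07e-12). Vipr1, a receptor for vasoactive intestinal peptide, went from 35.6, 38.4, 34.6 and 36.5 CPM to 24.3, 23.4, 23.2 and 26.4 CPM (log2 -0.58, edgeR adjusted p = 8.82e-11). Tef, a clock-controlled transcription factor, went from 15.5 ± 0.758 to 21.9 ± 1.35 CPM (log2 0.50, edgeR adjusted p = 1.30e-07). Hpgds, a prostaglandin D synthase, was the 1 gene past the threshold among 17 tested eicosanoid genes, at 31.5 ± 1.38 CPM in WT and 44.5 ± 2.88 CPM with OA (log2 0.50, edgeR adjusted p = 3.02e-08). Of 8 tested MS4A genes, membrane proteins with near copies, 4 were lower, Ms4a4a, Ms4a4b, Ms4a4c and Ms4a6c.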
